A study of Mus musculus with 2 samples.

Results

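Lung cells of mice with experimental allergic asthma were compared with those of control mice by droplet-based single cell RNA sequencing, which counts the RNA molecules of each gene in each cell by unique molecular identifiers (UMIs). The cells were those that carried the hashtag of the asthma pool or of the control pool, with at most 20% mitochondrial UMIs, at most 20000 UMIs and at least 500 genes, and 7387 of 7980 such barcodes passed (4025 asthma and 3362 control), out of 10088 cells kept in the whole series. Each pool held the lungs of 8 female C57BL/6J mice, wild-type animals of 1 inbred strain. Asthma mice were sensitized by intraperitoneal injection of the egg protein ovalbumin (OVA), 20 µg on 2 mg of Alum, an aluminium adjuvant, and then challenged repeatedly through the nose with 20 µg of OVA in 40 µl of saline. Control mice received Alum without OVA and saline through the nose, so the adjuvant is common to both pools. Dendritic cells (DCs) were sorted as MHC-II high CD11c high cells negative for MerTK, CD64 and Ly6C, and the sort also took macrophages. Hashtagged cells of all treatments were mixed and loaded on 2 lanes of the instrument, which are technical replicates. With 1 pool a side no test between the treatments was possible, so all differences below describe these pools, and the intervals given (95%, exact) cover counting error only.

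In this model a sensitized animal meets the allergen again in its airways, and T helper 2 cells then release IL-4 and IL-13. Through the transcription factor STAT6 these cytokines induce the so-called alternative activation of macrophages, a program known for Arg1, Retnla, Chil3 and the eosinophil attractant Ccl24, and in DCs the T cell attractant Ccl17 and the checkpoint ligand Pdcd1lg2. Interferons act through other STAT proteins. Type I interferon leads to binding of the factor ISGF3 to the interferon-stimulated response element (ISRE) in genes such as Isg15 and Ifit1, and interferon gamma induces the chemokine Cxcl9 and the Gbp and Irg families of GTPases. Alveolar macrophages (AMs) patrol the air spaces and clear surfactant lipid, interstitial macrophages (IMs) lie in the tissue, and conventional DCs carry antigen to T cells, cDC1 mainly to CD8 and cDC2 mainly to CD4 T cells.

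The promoters of 8 genes on which the following results turn are shown because they hold letters known from sites of ISGF3 or STAT6. Sequences are from RefSeq (GRCm38.p6) and run 5′ to 3′ on the strand of the gene, from 250 bases before to 50 bases after its start. In the first 5, the capitals mark the ISRE, searched as a pair of GAAA with 2 bases of any kind between them or, read on the other strand, a pair of TTTC spaced alike. Isg15 has 3 overlapping matches.
Isg15: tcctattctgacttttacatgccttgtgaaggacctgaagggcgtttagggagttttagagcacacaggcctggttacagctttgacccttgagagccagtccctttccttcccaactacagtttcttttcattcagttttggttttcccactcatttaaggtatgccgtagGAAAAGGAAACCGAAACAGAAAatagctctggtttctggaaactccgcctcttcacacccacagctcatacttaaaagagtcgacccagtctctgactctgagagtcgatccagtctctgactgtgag
Ifit1: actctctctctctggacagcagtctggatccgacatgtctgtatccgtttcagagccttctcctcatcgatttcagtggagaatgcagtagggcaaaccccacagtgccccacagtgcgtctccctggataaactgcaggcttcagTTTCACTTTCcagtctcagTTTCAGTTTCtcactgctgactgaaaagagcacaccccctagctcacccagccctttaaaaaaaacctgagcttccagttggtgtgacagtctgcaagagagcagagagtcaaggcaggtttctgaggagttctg
Rsad2: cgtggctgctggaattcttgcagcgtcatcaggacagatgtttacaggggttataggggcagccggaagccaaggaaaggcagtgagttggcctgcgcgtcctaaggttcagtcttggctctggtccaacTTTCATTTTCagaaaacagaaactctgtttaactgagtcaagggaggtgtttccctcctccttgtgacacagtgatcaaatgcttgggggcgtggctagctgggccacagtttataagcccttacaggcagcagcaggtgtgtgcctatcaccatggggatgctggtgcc
Cxcl10: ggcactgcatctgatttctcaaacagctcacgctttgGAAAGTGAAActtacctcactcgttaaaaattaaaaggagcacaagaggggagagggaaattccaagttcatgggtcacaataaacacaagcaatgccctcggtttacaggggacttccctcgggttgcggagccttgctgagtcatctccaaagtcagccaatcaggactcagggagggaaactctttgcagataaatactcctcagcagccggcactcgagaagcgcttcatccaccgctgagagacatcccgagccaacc
Ifitm3: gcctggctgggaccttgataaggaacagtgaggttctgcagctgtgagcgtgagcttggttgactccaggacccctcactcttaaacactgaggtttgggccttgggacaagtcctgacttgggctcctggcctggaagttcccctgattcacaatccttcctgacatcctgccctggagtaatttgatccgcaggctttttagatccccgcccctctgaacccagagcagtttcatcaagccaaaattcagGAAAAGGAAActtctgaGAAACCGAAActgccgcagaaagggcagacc
These lie at chr4:156200769-156201068, minus strand (Isg15), chr19:34640639-34640938, plus strand (Ifit1), chr12:26456403-26456702, minus strand (Rsad2), chr5:92348840-92349139, minus strand (Cxcl10) and chr7:141010695-141010994, minus strand (Ifitm3).

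In the other 3, the capitals mark the spaced palindrome that STAT6 prefers, searched as TTC and GAA with 4 bases of any kind between them, which reads the same on both strands.
Retnla: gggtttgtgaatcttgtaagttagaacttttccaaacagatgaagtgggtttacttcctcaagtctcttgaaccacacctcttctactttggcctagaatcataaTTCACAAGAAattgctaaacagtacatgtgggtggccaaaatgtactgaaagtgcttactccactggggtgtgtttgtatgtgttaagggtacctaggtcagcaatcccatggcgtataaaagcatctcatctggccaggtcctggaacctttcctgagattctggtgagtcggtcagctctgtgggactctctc
Ccl17: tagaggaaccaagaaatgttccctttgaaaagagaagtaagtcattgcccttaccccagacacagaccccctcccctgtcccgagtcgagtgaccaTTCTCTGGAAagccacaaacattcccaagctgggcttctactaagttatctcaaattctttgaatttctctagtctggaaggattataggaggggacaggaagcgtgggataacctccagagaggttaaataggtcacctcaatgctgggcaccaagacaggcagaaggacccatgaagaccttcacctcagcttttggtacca
Pdcd1lg2: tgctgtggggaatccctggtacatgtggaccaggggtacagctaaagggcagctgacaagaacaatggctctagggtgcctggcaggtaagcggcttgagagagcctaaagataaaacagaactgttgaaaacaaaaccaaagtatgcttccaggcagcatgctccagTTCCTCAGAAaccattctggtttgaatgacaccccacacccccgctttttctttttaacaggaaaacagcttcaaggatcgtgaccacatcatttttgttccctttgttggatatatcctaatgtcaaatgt
They lie at chr16:48842359-48842658, plus strand (Retnla), chr8:94810203-94810502, plus strand (Ccl17) and chr19:29410669-29410968, plus strand (Pdcd1lg2). Among all 27025 symbols with promoters of this length, 1079 (3.99%) held the ISRE letters and 2164 (8.01%) the STAT6 letters on either strand in at least 1 promoter. Of the 34 symbols of the type I interferon list, 26 had a promoter in the table, of which 16 (61.5%) held the ISRE and 6 (23.1%) the STAT6 letters. The type 2 list had promoters for 17 of its 21 symbols, and 3 of them (17.6%: Ccl17, Pdcd1lg2 and Retnla) held the STAT6 letters and 1 (5.88%: Socs1) the ISRE letters. The STAT6 letters were thus no more frequent in the type 2 list than in the interferon list. A match is a run of letters and was not tested as a binding site.

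The kept cells of the 4 libraries held between 8197534 and 11246373 UMIs, with medians of 4534 to 5178 UMIs a cell. Over all barcodes of a library, 98.7% to 99.2% of hashtag UMIs came from the hashtag of its own pool. Barcodes had been assigned by these hashtags, so this share is no separate check of the assignment. No cell barcode was shared between libraries of a lane or a pool. Each cell was given a type by fixed marker genes, hereafter a gate (AM-like, cDC2-like and so on), since the study's own annotation was not used here. The AM-like gate held its defining markers, with Krt79 at 570 CPM (counts per 1000000 UMIs of the gate) against 7.37 in the next gate and Car4 at 614 against 6.72. In the IM-like gate C1qa stood at 3234 CPM against 16.2 in the next. One marker, Fabp4, was higher in mature DC-like cells (458 CPM) than in AM-like cells (276 CPM). The gate markers themselves are not reported as results.

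The make-up of the sorted cells differed between the pools. The lanes of a pool lay closer together than the pools for AM-like, IM-like, cDC2-like, mature DC-like and endothelial-like cells. For cDC1-like, B cell-like, T cell-like, nonclassical monocyte-like and classical monocyte-like cells the asthma lanes also lay on the same side of both control lanes. AM-like cells were 71.6% and 72.3% of the control lanes and 42.8% and 42.7% of the asthma lanes. IM-like cells made up 1.67% of the control and 9.79% of the asthma pool, 5.88 times as much, and mature DC-like cells, the Ccr7+ DCs that migrate to lymph nodes, 1.01% and 5.14% (5.09 times). cDC2-like cells were 4.22% and 10.6%, while cDC1-like cells differed less, at 3.06% and 4.47%. B cell-like (4.13% and 6.98%), T cell-like (1.07% and 1.79%) and nonclassical monocyte-like cells (2.32% and 3.93%) were each a larger share of the asthma pool. Classical monocyte-like cells were a smaller share of it (0.833% and 0.348%). Endothelial-like cells were 6.39 times lower in the asthma pool (3.81% and 0.596%), and the neutrophil-like share of the control lanes (0.413% and 1.501%) spanned that of the asthma pool (0.646%). No cell of either pool met the eosinophil or the epithelial markers.

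**Figure D1:**
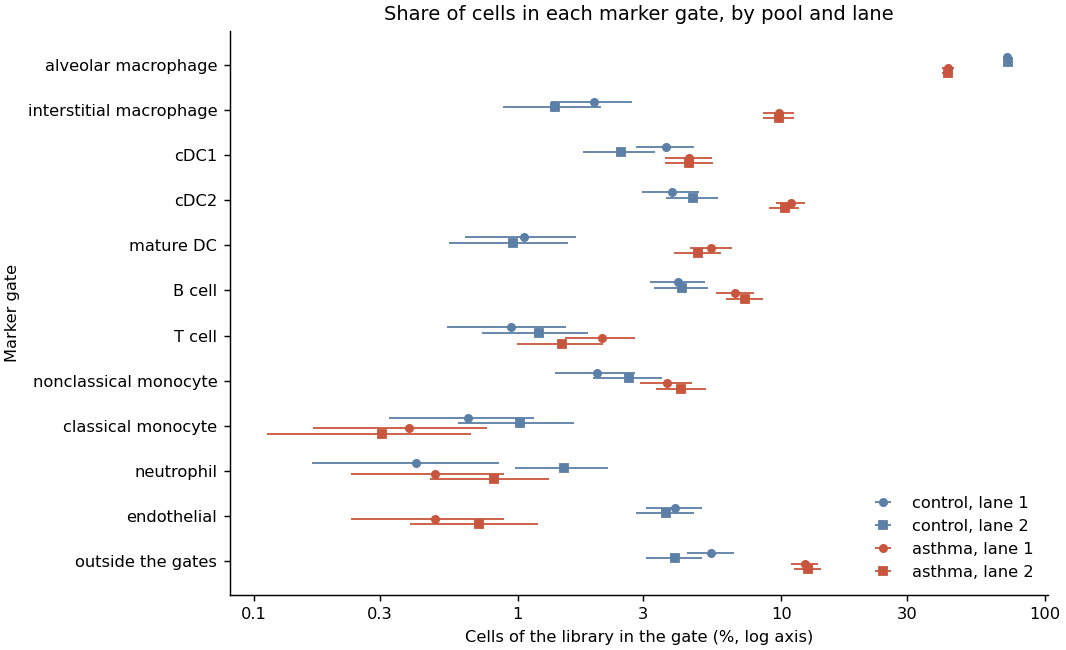
Share of the cells of each library (%, log axis) in each marker gate. Points are the 4 libraries (circles lane 1, squares lane 2, blue control, red asthma) and bars are exact 95% intervals, which cover counting error only. The points of the asthma lanes lie apart from those of the control lanes in all rows but that of neutrophil-like cells. Intervals of the pools overlap, however, for cDC1-like, T cell-like, nonclassical monocyte-like and classical monocyte-like cells.

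These shares depend on how many DCs and macrophages were sorted and add up to 100%, so a smaller AM-like share raises the others. When AM-like cells were left out of the total, IM-like (5.94% and 17.1%), mature DC-like (3.61% and 8.99%) and cDC2-like cells (15.1% and 18.5%) were still a larger share of the asthma pool. By contrast, cDC1-like (10.9% and 7.82%) and B cell-like cells (14.7% and 12.2%) were then a smaller one. Nonclassical monocyte-like cells (8.27% and 6.86%) were also lower, but the lanes of the pools overlapped (7.07% and 9.52% in control, 6.45% and 7.3% in asthma). T cell-like cells (3.82% and 3.13%) gave no direction, with 3.33% and 4.33% in the control and 3.65% and 2.58% in the asthma lanes. Among the DC gates alone, the cDC1-like share was 36.9% and 22.1% and the mature DC-like share 12.2% and 25.5%. The cDC2-like share was 50.9% and 52.4%, but its control lanes (44.8% and 57.5%) lay on either side of the asthma lanes (52.3% and 52.5%). The cDC1-like control lanes also lay apart (42.8% and 30.6%), above both asthma lanes (21.5% and 22.9%). Cells outside all gates were 4.7% of the control and 12.45% of the asthma pool. Of the 501 such asthma cells, 322 had too low a score and 179 lay close to a pair of types, most often cDC1-like with cDC2-like (42) or AM-like with classical monocyte-like (41).

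Within each gate the UMIs of a gene were summed per pool and lane and scaled to the total of the gate. A gene with at least 50 UMIs in a gate was taken as higher or lower in asthma where its level differed at least 2-fold in the same direction in both lanes. The 50 UMIs were counted over both pools together, so genes high in the pool with more UMIs of a gate were measured more readily. IM-like cells held 263890 control and 2267645 asthma UMIs, mature DC-like cells 148466 and 1195489, and AM-like cells 13457062 and 8625738. Counts of higher and of lower genes or list members therefore do not weigh both directions equally. In the AM-like gate (2419 control and 1722 asthma cells) 251 of 10106 genes (2.48%) were higher and 194 (1.92%) lower, and these percentages are the background for the counts of list members below. The median log2 ratio of all its genes was -0.11, and with median of ratios scaling, which moves it to 0.00463, the same gate gave 293 genes higher and 134 lower. Clusters made up mainly of AM-like cells were shared unequally by the pools, counting all cells of a cluster. The cluster that held most asthma cells had 1077 asthma against 9 control cells, and the largest control cluster 137 against 819. Other such clusters held cells of both pools (161 against 698, 163 against 347, 143 against 458 and 84 against 74).

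AM-like cells showed a broad interferon signature in the asthma pool. All 33 measured genes of the type I interferon list were higher, with log2 ratios from 1.23 to 6.21 and a median of 3.79. Isg15, a ubiquitin-like protein that is attached to newly made proteins, stood at 8.37 and 9.54 CPM in the control lanes and at 256 CPM in each asthma lane. Ifit1, which binds viral RNA, was at 1.11 and 1.68 CPM in control and at 78.9 and 60.9 CPM in asthma. The groups did not overlap for either gene, and the lanes of a pool differed far less than the pools. Irf7, the factor that amplifies the response, went from 4.11 and 4.77 to 118 and 109 CPM (log2 ratio 4.66).

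The largest ratio of the list was that of Oas3, a sensor of double-stranded RNA (log2 ratio 6.21), followed by Oasl2 (5.74), Ifit1 (5.63) and Rsad2 (5.62), which encodes viperin. Bst2, the tether that holds budding virus at the membrane, rose from 92.8 to 554 CPM over the pools (log2 ratio 2.58), and Ly6e from 299 to 701 CPM (1.23). Ifitm3, whose promoter letters are shown above, rose from 29.95 to 97.96 CPM, but its log2 ratio of 1.71 fell to 0.12 when cells were assigned by clusters.

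Genes known for induction by interferon gamma were higher in 12 of 14 cases, at a median log2 ratio of 3.12. Cxcl9, which attracts CXCR3+ T cells, was at 6.00 and 4.49 CPM in control and 66.3 and 69.1 CPM in asthma (log2 ratio 3.70). Gbp2 (3.06), Serpina3g (4.70) and Iigp1 (6.10, interval 4.21 to 9.17, with 2 UMIs in the control pool) were among them. Of the MHC class I and peptide loading list 10 of 16 members were higher and 0 lower. The peptide transporter Tap1 (log2 ratio 1.82), the immunoproteasome subunit Psmb9 (1.23) and B2m (1.09), the light chain of class I molecules, were among these. The classical heavy chain H2-K1 stood at 0.78 and H2-D1 at 0.06, within 2-fold. Reads of the Gbp, Ly6 and H2-Q families can be shared among near-identical members, so single values of these are uncertain.

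Of the type 2 list 9 of 19 members were higher and 0 lower in AM-like cells, at a median log2 ratio of 1.19. Ccl24, which recruits eosinophils through CCR3, was at 5.84 and 8.14 CPM in control and at 397 and 379 CPM in asthma, a 54.9-fold difference between the pools. Ccl17 rose from 38.1 and 29.2 to 468 and 437 CPM (log2 ratio 3.76), and Chil3, the chitinase-like protein Ym1, from 12150 and 11520 to 45690 and 40240 CPM (3.63-fold). In each case both asthma lanes lay above both control lanes. Arg1 (log2 ratio 4.67) and Irf4 (4.01), which drives alternative activation, stayed low in level, at 24.6 and 109 CPM in the asthma pool, and the feedback regulators Socs1 (3.02) and Cish (2.05) were also higher. Retnla gave no direction (32.9 and 13.8 CPM in control, 21.1 and 12.4 CPM in asthma), with log2 ratios between -0.98 and 1.75 over the alternatives, and Mrc1 (log2 ratio 0.52) and the receptor chain Il4ra (-0.45) differed less than 2-fold. The 8 IM markers summed to 48.0 and 43.9 CPM in the control and 116 and 120 CPM in the asthma lanes of this gate, with at most 1 of them at 0 in a library, and their part was not tested.

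Other groups moved in part. Of 17 chemokines measured, 8 were higher and 0 lower in AM-like cells, with Cxcl10 at a log2 ratio of 4.09. Among remodelling genes the elastase Mmp12 (14.9 to 248 CPM, log2 ratio 4.05), Mmp14 (2.68) and the growth factor Hbegf (4.55) were higher and Gpnmb (-1.07) was lower, though within 2-fold with median of ratios scaling and after thinning. Ch25h, which makes the oxysterol 25-hydroxycholesterol, rose from 64.0 to 453 CPM, and the lipid transfer protein Pltp was lower (log2 ratio -1.23). Complement C4b (3.31), Cfb (1.85) and C3 (1.76) were higher, and the receptor C5ar1 was lower (264 to 91.2 CPM). None of 28 cell division genes passed, and of 16 AM genes outside the gate 1 was higher and 2 were lower. Ear1 was one of these (673 and 680 to 283 and 283 CPM), whereas its near-identical relative Ear2 stood at 0.04 on the log2 scale, so the pair is uncertain.

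Among genes on no list, Rnase2a, a ribonuclease of the eosinophil-associated family, had the largest ratio in AM-like cells, from 1.90 and 1.12 CPM to 141 and 119 CPM (87.3-fold). Tarm1 (log2 ratio 6.10), Fbp1 (5.98), Ocstamp (4.96), a fusion gene of multinucleate cells, Gatm (3.93) and the growth factor Csf1 (3.88) were also higher. Among those that were lower were Akap5 (-2.12), the chemokine receptor Cxcr1 (-1.95) and Hsd11b1 (-1.89), which reactivates glucocorticoid.

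**Figure D2:**
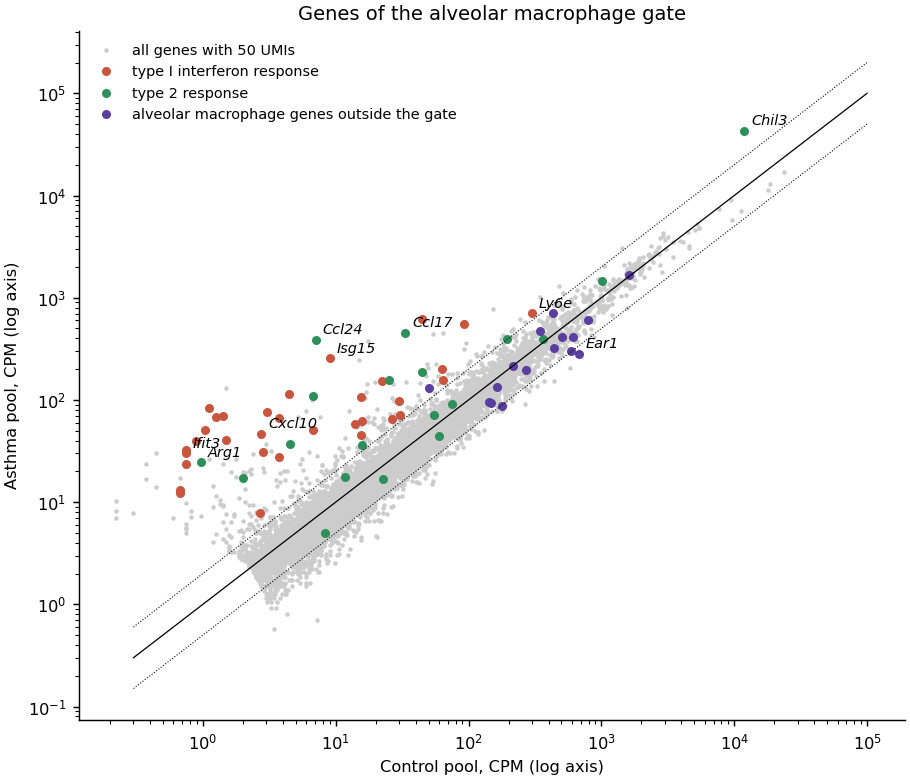
Level of each gene with at least 50 UMIs in AM-like cells, control pool (x axis) against asthma pool (y axis), in CPM on log axes. Grey points are all such genes and coloured points members of 3 lists. The solid line is equality and dotted lines are 2-fold. All 33 type I interferon genes (red) lie above the upper dotted line, and Chil3 is the highest type 2 gene (green).

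The interferon signal was unevenly spread over single cells. To compare cells of unequal depth, each was thinned to 2000 UMIs and shallower cells were left out. Of 2374 control AM-like cells 9 (0.379%, interval 0.174 to 0.718) had at least 10 UMIs of the type I interferon list, against 460 of 1621 asthma cells (28.4%, 26.2 to 30.6). The shares in the lanes were 0.337% and 0.422% in control and 28.7% and 28.0% in asthma. The median of the list rose from 1 to 5 UMIs a cell. IM-like (5.88% to 39.2%), cDC1-like (7.77% to 26.1%), cDC2-like (10.8% to 35.3%) and mature DC-like cells (0 of 31, which by the limit of 3 counts allows a share of up to 9.68%, to 32.5%) were also more often above this level in asthma. Nonclassical monocyte-like cells stood at 83.0% and 90.1%, so they hold such RNA without allergen. B cell-like cells stood at 26.4% and 24.8%, but 86 of 139 control and 160 of 281 asthma cells were too shallow to be counted, and the control lanes differed (2 of 20 and 12 of 33 cells, 10% and 36.4%, against 26% and 23.9% in asthma), so no contrast is drawn from them.

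**Figure D3:**
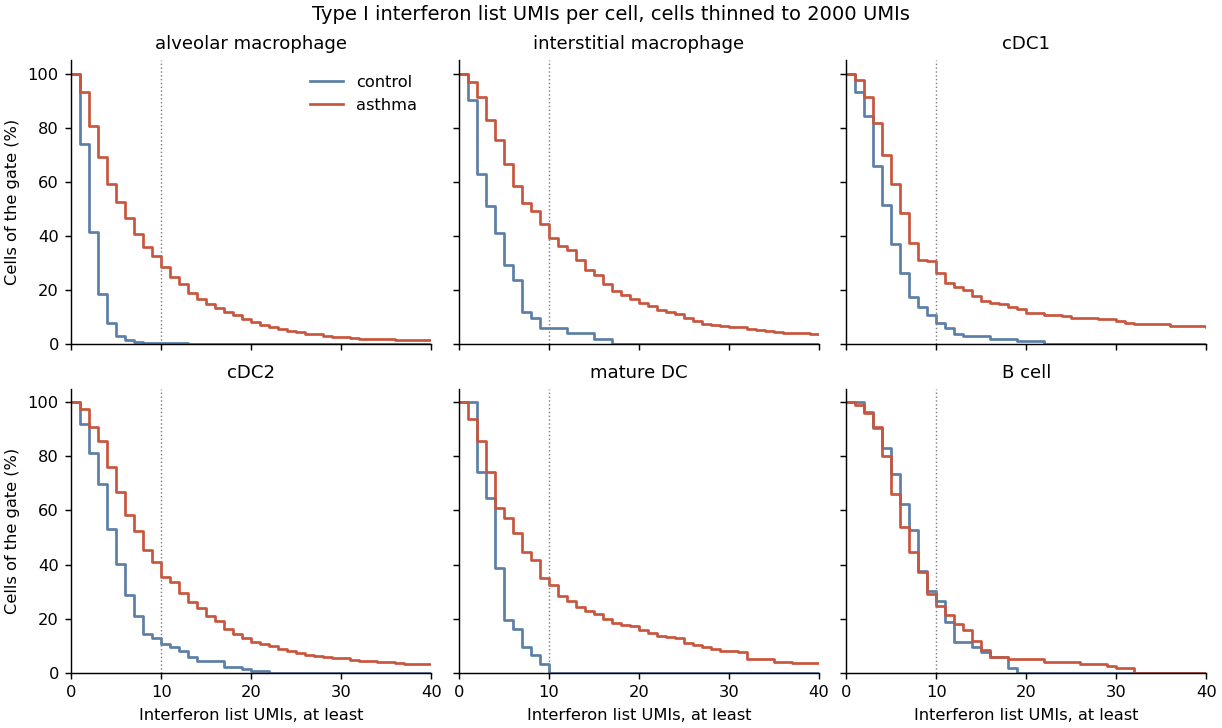
Share of the cells of a gate (%, y axis) with at least a given number of type I interferon list UMIs (x axis), after each cell was thinned to 2000 UMIs, for control (blue) and asthma (red). The dotted line marks 10 UMIs. At the dotted line the asthma curve is above the control curve in the 5 phagocyte gates (28.4% against 0.379% in AM-like cells), and in B cell-like cells the shares are 24.8% and 26.4%. In mature DC-like cells the curves cross below 2 UMIs.

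Between asthma cells high and low in interferon RNA, type 2 genes were more often lower than higher in the interferon-high cells. There were exceptions in AM-like, IM-like and cDC2-like cells. Within the asthma pool, AM-like cells with at least 10 interferon UMIs held 309 CPM of Ccl24 and those with fewer 338 CPM, and 238 against 381 CPM of Ccl17. Arg1 was at 8.70 against 24.1 CPM, and Chil3 stood at 43380 and 39210 CPM in the same order. Cxcl9 was higher in the interferon-high cells (140 against 28.4 CPM). In IM-like cells Ccl24 was at 3218 against 6270 CPM, Chil3 at 1343 against 2604 CPM and Retnla at 2911 against 4472 CPM. For Retnla lane 2 alone gave 3543 and 3568 CPM. Higher in these interferon-high IM-like cells were Ccl8 (1129 against 431 CPM) and Ccl17 (521 against 415 CPM). In cDC2-like cells Ccl17 was at 415 against 2572 CPM, and Chil3 at 364 against 173 CPM. Both sets of cells came from 1 pool and were split by an RNA measure, so these are descriptions of that pool.

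IM-like cells (56 control and 394 asthma) had 241 of 5876 genes (4.1%) higher and 102 (1.74%) lower in asthma. The genes of alternative activation were among those with the largest ratios, with 9 of 19 type 2 members higher and 0 lower. Ccl24 was at 15.02 and 22.95 CPM in the control lanes (5 UMIs in all) and 5162 and 4805 CPM in the asthma lanes, a log2 ratio of 8.03 (interval 6.81 to 9.66). Retnla, a secreted protein also called FIZZ1, stood at 60.1 and 61.2 CPM against 3889 and 3497 CPM. Both lanes of asthma exceeded both of control by far. Arg1, which breaks down arginine, was at 0 and 7.65 CPM (1 UMI) in control and at 850 and 779 CPM in asthma (log2 ratio 7.74, interval 5.26 to 13.05). The monocyte attractant Ccl8 likewise had 1 UMI in control and 570 CPM over the asthma pool.

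Chil3 rose from 143 and 298 to 1973 and 1570 CPM and the mannose receptor Mrc1 from 296 to 766 CPM over the pools. Pdcd1lg2 had 0 UMIs in control and 99.7 CPM in asthma, at least 8.77-fold higher. When clusters were used in place of gates, the log2 ratio was -0.04 for Retnla and 0.96 for Mrc1, while Ccl24 and Arg1 remained past 2-fold in each alternative. The control IM-like cells are few, and the 11 AM markers summed to 638 and 589 CPM in the control lanes (5 and 7 of them at 0) and 762 and 719 CPM in the asthma lanes of the gate (1 and 2 at 0), a part that was not tested.

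Interferon genes were higher in 15 of 30 cases in IM-like cells, with a median log2 ratio of 1.74. Isg15 went from 37.5 and 30.6 to 239 and 265 CPM (log2 ratio 2.89). Among chemokines 5 of 16 were higher, including Ccl12 (2.83) and Cxcl9 (2.70), and the neutrophil attractants Cxcl1 (-2.87) and Cxcl2 (-1.48) were lower. Remodelling genes were higher in 5 of 19 cases and lower in 0, with osteopontin Spp1 (140 to 932 CPM) and the transglutaminase Tgm2 (log2 ratio 1.88). Fabp5, a carrier of fatty acids, rose from 67.6 and 237 to 1776 and 1758 CPM, and the clotting factor F7 had a log2 ratio of 4.06 (3 UMIs in control, interval 2.50 to 6.34). Of 27 division genes 6 were higher and 0 lower, among them Pclaf (3.42) and Cdk1 (2.44), on 2 or 3 control UMIs each. Mki67 was within 2-fold (0.93, from -0.33 to 2.05 over the alternatives). After thinning, 3 of 51 control cells (5.88%, interval 1.23 to 16.2) held at least 3 UMIs of 8 division genes. In asthma 29 of 357 cells did (8.12%, 5.51 to 11.5), so the intervals overlapped and no difference in dividing cells is drawn.

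Other genes of IM-like cells were lower in asthma. Apoe, a lipid carrier, was at 7696 and 4384 CPM in control and 2034 and 1574 CPM in asthma. Cx3cr1, the fractalkine receptor, fell from 349 to 113 CPM and the lysozyme gene Lyz2 from 14610 to 4609 CPM. Hpgd, which inactivates prostaglandins, dropped by 3.02 on the log2 scale. The early response genes Egr1 (-2.11), Jun (-1.64) and Fos (-1.29), which cell isolation can also induce, were lower too, and their part in the other differences was not tested. Outside the lists Rnase2a had 0 UMIs in control and 649 and 504 CPM in asthma (at least 50.2-fold higher), and the protease inhibitor Timp1 was at least 20.4-fold higher.

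**Figure D4:**
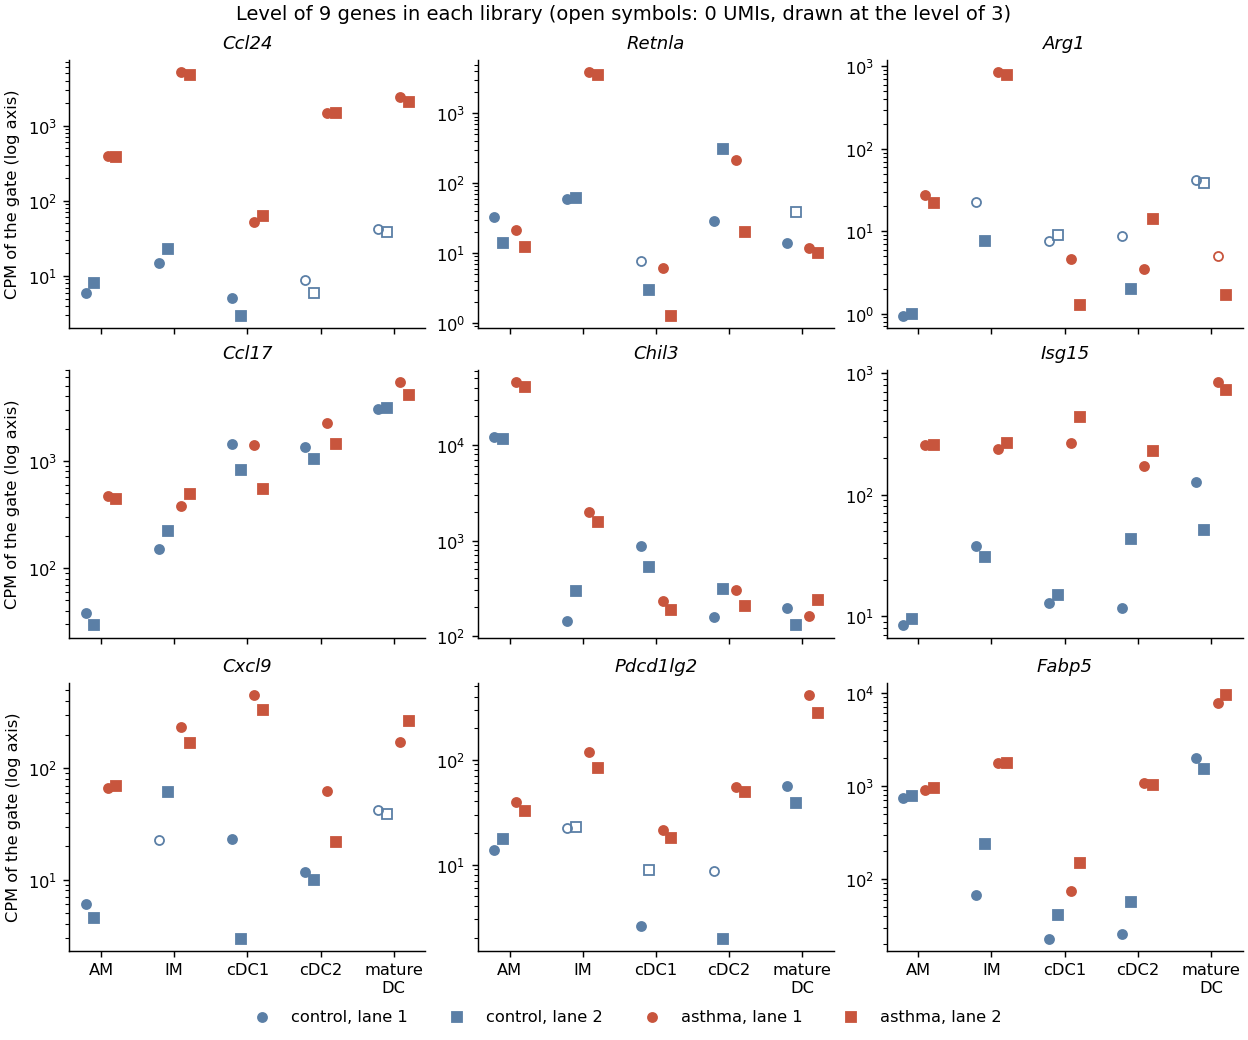
Level of 9 genes (CPM of the gate, log axis) in 5 gates. Circles are lane 1 and squares lane 2, blue control and red asthma. Open symbols stand for libraries with 0 UMIs and are drawn at the level that 3 UMIs would have there. Ccl24 is higher in asthma in all 5 gates. In cDC1-like cells, however, its asthma level lies between those of the B cell-like asthma lanes, and its ratio was within 2-fold with a stricter gate. Retnla and Arg1 reach 3497 and 779 CPM or more only in IM-like cells among the gates drawn.

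cDC2-like cells (142 control and 426 asthma) had 231 of 6860 genes (3.37%) higher and 143 (2.08%) lower. Ccl24 was the clearest of the higher ones, with 0 UMIs in both control lanes and 1460 and 1501 CPM in the asthma lanes, at least 421-fold higher. The ligands of the T cell checkpoint PD-1 were both higher. Pdcd1lg2 stood at 0 and 1.97 CPM in control and at 54.6 and 49.0 CPM in asthma (1 UMI in control, log2 ratio 5.46, interval 2.96 to 10.77), and Cd274 at 2.91 and 5.91 against 45.6 and 45.1 CPM. Cd40, through which T cells license DCs, was also higher (log2 ratio 1.66), while the costimulator Cd86 differed little (90.0 and 96.5 CPM against 110 and 109 CPM). Of the type 2 list 6 of 17 members were higher (Ccl24, Pdcd1lg2, Socs1, 1.95, Tfrc, 1.93, Socs2, 1.78, and Cish, 1.58), 2 lower (Ccl22 and Il13ra1) and 9 neither.

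The T cell attractant Ccl17 was at 1339 and 1032 CPM in control and 2261 and 1449 CPM in asthma, within 2-fold (log2 ratio 0.65), and its relative Ccl22 was lower (59.8 to 27.3 CPM), though within 2-fold in an alternative. Retnla gave no direction in this gate, since the lanes of 1 pool differed more than the pools did (29.1 and 309 CPM in control, 216 and 20.3 CPM in asthma). Fabp5 rose from 26.1 and 57.1 to 1083 and 1032 CPM, and the glycolytic enzyme Pfkp from 119 to 423 CPM. Cyp7b1, which degrades oxysterols, was at 0 and 1.97 CPM in control and 112 and 175 CPM in asthma (log2 ratio 6.96, interval 4.48 to 12.27). The phosphatidylserine receptor Timd4 (3.50), the cystatin Cst7 (6.02, 1 UMI in control) and Ramp3 (3.60) were higher as well.

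Interferon genes were higher in 19 of 31 cases and lower in 0 in cDC2-like cells (median log2 ratio 1.62), with Rsad2 at 4.15, Irf7 at 3.87 and Cxcl10 at 2.72. Isg15 was at 11.6 and 43.3 CPM in control and 171 and 230 CPM in asthma. Of the interferon gamma list 6 of 10 were higher, including Serpina3g (5.28, 2 UMIs in control) and Ly6a (at least 37.3-fold). Neither list had a member that was lower.

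Some receptor and sensor genes were lower in asthma cDC2-like cells, though most members of these lists did not pass. Il1rl1, which encodes ST2, the receptor of the alarmin IL-33, stood at 108 and 126 CPM in control and 25.6 and 24.8 CPM in asthma. Of 17 cytokine receptor genes 0 were higher and 4 lower, with Tgfbr1 (log2 ratio -1.98), Tgfbr2 (-1.26) and Il13ra1 (-1.43) beside Il1rl1. Lower were 2 of 4 genes of the Toll-like receptor list (Tlr2, -1.68, and Cd14, -1.69), 3 of 8 C-type lectins (Cd209b, -2.83, Cd302, -1.94, and Clec12a, -1.81) and 2 of 6 eicosanoid genes (Hpgd, -3.36, and Alox5, -2.12), with 0 higher in each list, while 0 of 5 Fc receptor genes passed. So were Tnf (-1.83), transferrin Trf (-2.18) and the protease inhibitor Cst3 (16430 and 14880 to 5866 and 5633 CPM). MHC class II genes summed to 83280 and 80020 CPM in control and 59510 and 58460 CPM in asthma (median log2 ratio -0.48, against 0.11 for all genes of the gate), but 1 of 10 members (H2-Oa) passed 2-fold. The dissociation and stress list summed to 15410 and 14360 against 9714 and 10150 CPM, with 0 of 16 higher and 2 lower (Egr1 at -1.78), and its part was not tested. The 8 IM markers summed to 227 and 175 CPM in the control and 65.7 and 43.9 CPM in the asthma lanes, and the 11 AM markers to 119 and 309 against 311 and 201 CPM. At most 4 and 3 of these were at 0 in a library, and their part in these differences was not tested.

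CLEC12A was also read as protein, by an antibody tag on all cells. In cDC2-like cells the median was 58 and 65 tag UMIs a cell in the control lanes and 28 and 33 in the asthma lanes, and Clec12a RNA was at 148 and 171 against 50.5 and 42.8 CPM, so both readouts were lower in the asthma pool. The tag stood at 95 and 91.5 in cDC1-like cells, but the lanes disagreed (90.5 and 114 in control, 94 and 83 in asthma). Clec12a RNA differed little in these cells (log2 ratio -0.24). The tag was at 44 and 29 in mature DC-like and at 63 and 48 in IM-like cells. In AM-like cells the tag was higher in asthma (29 and 36), with 27 and 32 in the control lanes and 33 and 38 in the asthma lanes. B cell-like cells gave 18 and 16 and T cell-like cells 14.5 and 12, which is the level of cells with little of the protein.

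cDC1-like cells (103 control and 180 asthma) had 99 of 4993 genes (1.98%) higher and 65 (1.3%) lower. Interferon genes led those that were higher. All 6 measured genes of the interferon gamma list and 14 of 27 of the type I list passed, and 0 were lower. Cxcl9 was at 23.1 and 2.96 CPM in control and 453 and 336 CPM in asthma (log2 ratio 4.82), and Isg15 at 12.8 and 14.8 against 265 and 439 CPM (4.71). The asthma lanes lay above the control lanes for both. Cxcl10 (5.19), Irf7 (3.87) and Ly6a (4.94) followed, Rsad2 was at least 22-fold higher, and Serpina3g had 1 UMI in control and 201 CPM in asthma. Cd40 (2.13) and the family members Ms4a4c (4.53) and Ms4a6d (2.49) were higher, and none of the 16 MHC class I genes passed.

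Type 2 genes were mixed in cDC1-like cells, with 3 of 12 higher and 4 lower. Ccl24 was low but higher (5.14 and 2.96 CPM against 51.8 and 62.3 CPM, 3 UMIs in control, interval of the log2 ratio 2.21 to 6.11), and its asthma level of 57.5 CPM lay between the B cell-like asthma lanes (19.6 and 225 CPM). With a stricter gate its log2 ratio was 0.95. Chil3 (-1.78), Mrc1 (-2.28), Apoe (-5.03), Lyz2 (-2.55), Cebpb (-2.30) and Cybb (-2.05), all known from macrophages, were lower with the gates as used. The 11 AM markers summed to 575 and 675 CPM in the control and 421 and 191 CPM in the asthma lanes of the gate, with at most 3 of them at 0 in a library. Without the cells that held at least 3 markers of a second gate, the log2 ratios of Mrc1, Cebpb and Cybb became 0.18, 1.23 and 1.26, and Chil3 was within 2-fold in 3 alternatives (up to -0.17), so no direction is given for these 4 genes.

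Mature DC-like cells (34 control and 207 asthma) had 128 of 3350 genes (3.82%) higher and 64 (1.91%) lower. Ccl24 had 0 UMIs in control and 2416 and 2043 CPM in asthma, at least 110-fold higher. Pdcd1lg2 was at 56.6 and 38.6 CPM in control and 412 and 281 CPM in asthma (log2 ratio 2.88), and Cd274 had a ratio of 1.92 on the same scale. Cd40 (0.29) and Cd86 (0.36) differed less than 2-fold, and Icosl, the ligand of the T cell costimulator ICOS, was lower (241 and 167 against 34.9 and 57.3 CPM). Interferon genes were higher in 12 of 28 cases and lower in 0 (median log2 ratio 1.69), with Isg15 at 127 and 51.4 CPM against 843 and 721 CPM and Ifitm3 at 42.4 and 64.3 against 467 and 595 CPM.

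Cytokine and chemokine genes of mature DC-like cells went in both directions. Il12b, the p40 chain of IL-12 and IL-23, was at 1711 and 2147 CPM in control and 341 and 290 CPM in asthma, 6.15-fold lower. Ccl5 was 5.25-fold lower (6846 and 8950 against 1117 and 1917 CPM). No asthma lane reached the level of a control lane for either gene. Ccl17 (3069 and 3125 against 5417 and 4130 CPM) and Ccl22 (2801 and 5118 against 3973 and 2833 CPM) stayed within 2-fold. Icam1 (log2 ratio -1.32) and the phosphatase Dusp2 (-1.85) were lower, and Gpr183, the receptor of a dihydroxy oxysterol (1.82), the IL-1 receptor antagonist Il1rn (3.46, 2 UMIs in control) and Fabp5 (1966 and 1517 to 7815 and 9360 CPM) were higher. The 11 AM markers summed to 170 and 244 CPM in control (9 and 8 of them at 0) and 532 and 819 CPM in asthma (2 and 0 at 0), of which Fabp4 made up 379 and 630 CPM in asthma, and their part was not tested.

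**Figure D5:**
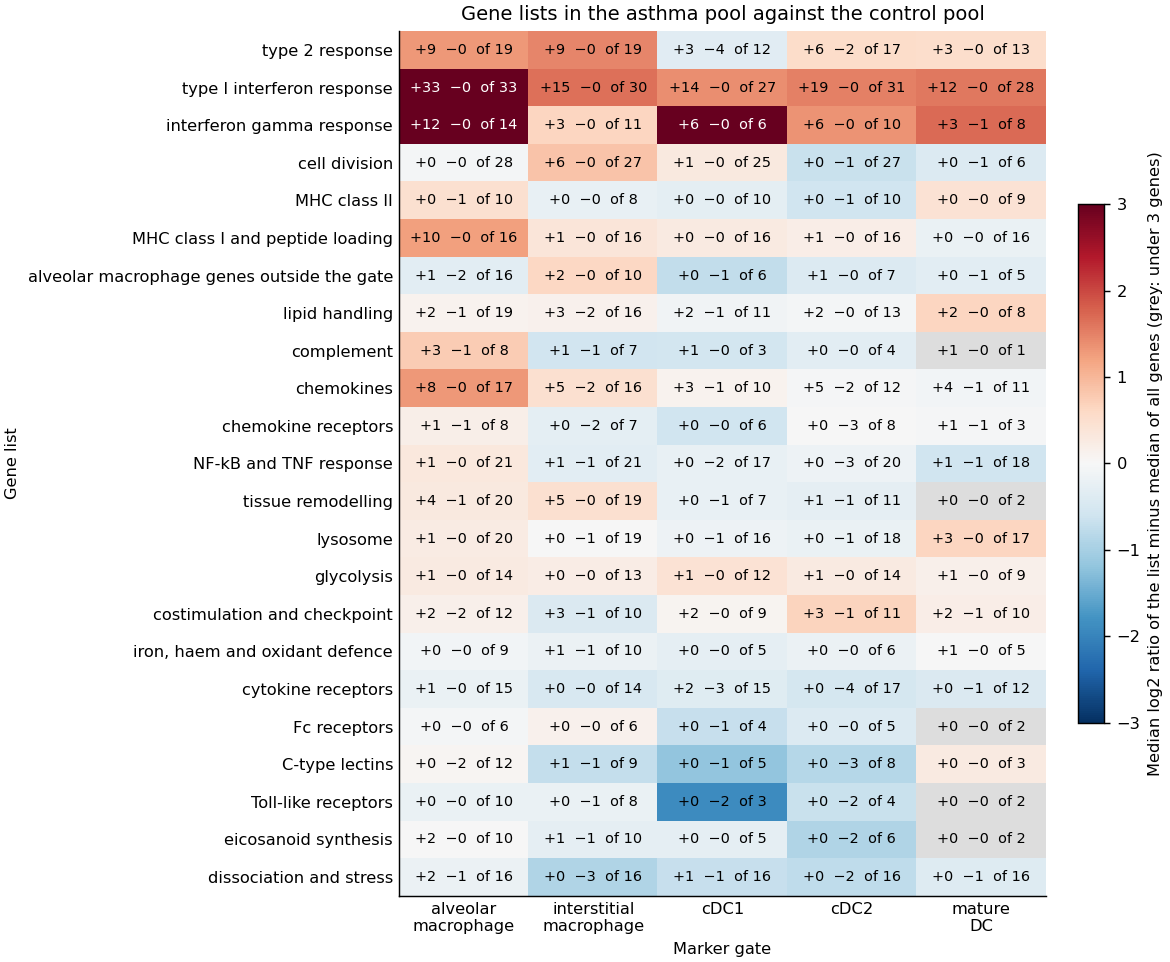
Gene lists (rows) in 5 gates (columns). The colour is the median log2 ratio of asthma to control of the measured members minus that of all genes of the gate, and the text gives how many members were higher (+) and lower (−) of those measured, and grey marks lists with under 3 measured genes. The type I interferon row has no member that was lower in any of the 5 gates, and the type 2 row is strongest in AM-like and IM-like cells (9 of 19 each).

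Several of these genes were also counted in single cells thinned to 2000 UMIs, beside B cell-like cells, which should lack the macrophage and DC genes among them. Ccl24 was detected in 1.31% of control and 8.58% of asthma AM-like cells (3.76% and 12.7% before thinning) and in 1.96% and 58.8% of IM-like cells (7.14% and 62.7%). In cDC2-like cells the asthma share was 27.4% and in mature DC-like cells 34.0%, against 4.13% of asthma B cell-like cells. cDC1-like cells stood at 3.98% in asthma, no higher than B cell-like cells, and the source of their Ccl24 RNA was not tested. Arg1 was found in 35.9% of asthma IM-like and 0 of 121 asthma B cell-like cells (up to 2.48% by the same limit), and Retnla in 34.7% against 1.65%.

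Isg15 was found in 1.31% of control and 25.5% of asthma AM-like cells, with 0% and 5.79% in B cell-like cells, which can express this gene and are no background for it. Fabp5 went from 8.63% to 49.8% of cDC2-like and from 9.80% to 50.7% of IM-like cells (5.66% and 4.96% of B cell-like cells). Il12b was found in 54.8% of control and 19.3% of asthma mature DC-like cells. The median depth was 1689 and 1907 UMIs in B cell-like and 5063 and 4610 UMIs in AM-like cells. In asthma B cell-like cells the Ccl24 level itself was 19.6 CPM in one lane and 225 CPM in the other. The source of this RNA was not tested.

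Lymphoid and monocyte gates held fewer UMIs. In B cell-like cells 18 of 2939 genes (0.612%) were higher and 5 (0.17%) lower, among them Isg15 (log2 ratio 3.52, 3 UMIs in control, interval 1.91 to 5.83), Cxcl9 (4.24, 2 UMIs) and Ahnak (-1.45). In T cell-like cells 15 of 720 (2.08%) were higher and 5 (0.694%) lower. The checkpoint receptor Ctla4 (2 UMIs in control, 251 CPM in asthma), the costimulator Icos (128 to 394 CPM), Lgals1 (203 to 989 CPM) and Ccl5 (0 UMIs in control, at least 16.9-fold) were higher. Il13, the signature cytokine of T helper 2 cells, had 0 UMIs in control and 9 in asthma, too few to be measured by the rule of 50 UMIs.

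Nonclassical monocyte-like cells, which patrol the vessel wall, had 15 of 2399 genes (0.625%) higher and 4 (0.167%) lower. Ccl17 rose from 11.6 and 22.98 to 442 and 339 CPM, Mmp12 from 1 UMI to 109 CPM, and the prostaglandin enzyme Ptgs2 by 2.00 on the log2 scale, while Tnf was lower (-1.27). Their type I interferon genes were high in both pools, with Ifitm3 at 3400 and 3859 CPM. In this gate the 11 AM markers summed to 966 and 597.5 CPM in the control and 694 and 574 CPM in the asthma lanes. The 9 cDC2 markers summed to 582 and 682 against 563 and 838 CPM, and the 8 IM markers to 221 and 567 against 247 and 362 CPM. The part of such RNA in the differences of this gate was not tested. Neutrophil-like cells gave 5 of 368 genes (1.36%) higher and 26 (7.07%) lower. Most of the lower ones encode ribosomal proteins, and the control lanes of the gate held B cell markers at 1582 CPM in one and AM markers at 1609 CPM in the other.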

How the data were processed

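Cells of 8 pooled mice a treatment were measured on 2 lanes. The deposited values are integer UMI counts per gene and barcode, which the authors made on mm10 with STAR and Cell Ranger 3.1.0, with barcodes assigned to treatments by hashtag in Seurat 3.1.5, and antibody tag counts. The 31053 gene entries were used unscaled. A cell entered a gate when its mean scaled marker score was at least 0.12 and at least 1.25 times that of the next gate, with at least 3 markers detected. CPM scales the UMIs of a gene, summed over the cells of a gate, to 1000000 UMIs of the gate. Genes with at least 50 UMIs in a gate were called at 2-fold in both lanes, in gates with at least 25 cells a pool. A count of 0 was set to 3 UMIs over the pool, so such folds are lower bounds. Intervals are exact (Clopper-Pearson and Poisson, 95%) and cover counting error only, since UMI totals set the precision. Named are list members and up to 10 unlisted genes each way with at least 100 UMIs and the largest ratios, and the ones described were picked with their values in view. The members and lists were chosen with earlier results of these data known. Of 433 list symbols, 2 (Aldoa and Clec7a) were not analysed here. Doublets beyond those the hashtags remove were kept, since the Scrublet threshold marked 0.0585% and 0.121% of the lanes' cells. The call was run on simulated counts with counting error only and planted changes larger than 2-fold. They held no other variation between lanes or pools, so they cannot show how the call handles such variation. Alternatives changed the lanes, gene floor, doublets, gate, UMI minimum, depth, scaling and denominator, and 5 were chosen after seeing the data. Python 3.11.15, scanpy 1.11.5, numpy 2.4.6, scipy 1.17.1, pandas 2.3.3 and matplotlib 3.10.9 were used. Beyond their number, cells of the tolerance pool entered only the check of shared barcodes and the doublet scores, which were computed per lane over all pools.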

Additional observations from a re-analysis of the deposited data

Results flagged for a closer look

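Of the 433 list members, 5 were higher in asthma in one phagocyte gate and lower in another. The difference between the gates was not tested for any of them. Chil3 had a log2 ratio of 1.86 in AM-like, 3.00 in IM-like and -1.78 in cDC1-like cells, the last within 2-fold in 3 alternatives (up to -0.17). Mrc1 stood at 1.38 in IM-like and -2.28 in cDC1-like cells, where its sign depended on the cells kept. Cxcl2, a neutrophil attractant, was at 2.76 in mature DC-like cells (3 UMIs in control) and -1.48 in IM-like cells. Irf1, a factor downstream of interferon gamma, was at 1.95 in AM-like, 1.77 in cDC1-like and -1.12 in mature DC-like cells, where it was within 2-fold (up to -0.63) with a floor of 1200 genes and after thinning. Serpinb1a, an elastase inhibitor, was at 2.00 in cDC2-like, -1.04 in AM-like and -1.79 in mature DC-like cells. The AM-like value was within 2-fold (up to -0.93) with median of ratios scaling and after thinning.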

How the results depend on the processing

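No paired analysis was possible because each treatment is 1 pool and no test was made. Of 206 named values, 173 were past 2-fold and 151 of these stayed so in each alternative. Without AM-like cells in the total, the difference in share (asthma minus control, in percentage points) became 11.17 for IM-like, 3.439 for cDC2-like and 5.383 for mature DC-like cells (8.123, 6.36 and 4.132 of all cells), and turned to -3.107 for cDC1-like (1.408) and -2.539 for B cell-like cells (2.847). A floor of 1200 genes gave 8.034 for cDC2-like and 0.7874 for B cell-like cells, a stricter gate 4.624 for cDC2-like, clusters 14.01 for IM-like and 9.21 for cDC2-like, and leaving out cells with markers of a second gate 6.7 for IM-like cells. The number of genes past 2-fold depended on depth. With at least 10 UMIs it was 697 (AM-like, 445 with 50), 767 (IM-like, 343), 546 (cDC1-like, 164), 687 (cDC2-like, 374) and 711 (mature DC-like, 192). With at least 100 UMIs it was 219 (IM-like), 76 (cDC1-like) and 111 (mature DC-like), and with cells thinned to 2000 UMIs 294, 181, 41, 193 and 79 in the first order. Single lanes gave 540 to 682 (IM-like) and 312 to 318 (mature DC-like). Type I interferon genes that were higher fell to 8 (IM-like, from 15), 4 (cDC1-like, from 14), 10 (cDC2-like, from 19) and 3 (mature DC-like, from 12) after thinning, and to 9 in cDC1-like cells with at least 100 UMIs. The minimum of 50 UMIs still held after thinning. A gene could therefore leave these counts, and the totals above, because it was no longer measured. The CLEC12A difference in cDC2-like cells was -32 to -30 by lane (-31.5 together), and that of 6 transcripts common in free RNA in B cell-like cells -585.9 to 510.2 CPM (-86.94). With clusters the log2 ratio of Retnla was -0.0438 (IM-like) and of Mrc1 1.98 (cDC1-like), and without cells with markers of a second gate Mrc1, Cebpb and Cybb were at 0.18, 1.23 and 1.26 in cDC1-like cells. The setting without cells that hold markers of a second gate, and the alternatives of the interferon list, the tag and the free RNA, were chosen after seeing the data. The causes were not tested. Few control cells (34 to 103 in the smaller gates) limit what can be seen there.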
